A study of Mus musculus with 51 samples.

Results

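The step from the 4-cell to the 8-cell stage was examined in mouse clones, embryos that had received the nucleus of a Sertoli cell in place of the oocyte's own. Clones of the 8-cell stage (n = 5) were set against clones of the 4-cell stage (n = 5), which are 10 of the 51 arrays of the series. All probe sets annotated with exactly 1 gene symbol were taken, and where a gene had several, the one whose SD over the 51 arrays was largest stood for it, which left 18193 genes. Sertoli cells are the somatic nurse cells of the seminiferous tubule. The donor cells were B6CBF1 and the recipient oocytes B6D2F1, while embryos made by in vitro fertilisation (IVF) were B6D2F1×B6D2F1, and all were cultured in KSOM medium. The 4-cell embryos were collected 48 h and the 8-cell embryos 62 h after activation (clones) or sperm addition (IVF). The series also holds 3 unfertilised oocytes in metaphase II (MII), and it covers 6 stages from 1 cell to blastocyst with 3 IVF embryos and 5 clones each. Every array carried amplified RNA of 1 single oocyte or embryo, so n counts embryos. The labels call the replicates biological and do not say whether embryos of a group shared a nuclear transfer session. Clones differed from IVF embryos in strain as well as in the method, and a Sertoli cell genome is male where an IVF embryo may be of either sex.

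The transition falls after the major activation of the embryonic genome and before compaction, when the blastomeres flatten against each other through E-cadherin and become polarised. Over this period maternal transcripts continue to be removed, and genes that later distinguish inner cells from trophectoderm, the outer epithelium of the blastocyst, begin to be transcribed. In a clone the same programme has to start from a somatic nucleus that carried no such programme when it entered the oocyte.

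Values are log2 intensities as deposited, each relative to a baseline of its own probe set, so a value of 0 is no level and only differences between embryos can be read. A difference is written as 8-cell minus 4-cell on the log2 scale with its standard error (SE). A gene rose or fell when limma's moderated test gave a Benjamini-Hochberg adjusted p under 0.05 over the 18193 genes, in a fit of the 30 clone arrays with 1 mean per stage. The spread between embryos of a group, as a root mean square SD over genes, was 0.65 at the 4-cell and 0.675 at the 8-cell stage, the highest of the clone stages, against 0.355 in blastocysts. The pooled fit borrows its spread from all 6 stages, and for that reason the result of a fit on the 10 arrays alone is given beside the main counts. The Y-linked Eif2s3y, a translation initiation factor subunit that a clone from a male donor should carry, was at 0.48 to 1.70 in the 4-cell clones. In the 8-cell clones it was at 0.00, -2.70, 1.01, -5.25 and 1.23, where the MII oocytes were at -5.42 to -5.37. The embryo labelled 8-cell clone replicate 4 therefore goes against its label in this gene. A second Y-linked gene, Kdm5d, was at -0.64 in that embryo and also at -0.64 in the 4-cell clone replicate 5, close to the oocytes at -0.71 to -0.70, and spanned 0.01 to 3.46 in the other 8 clones. Xist, the X-linked RNA that oocytes had at -4.82 to -4.62, was at 2.20 in the 8-cell clone replicate 4, within the 2.07 to 5.31 of the other 8-cell clones, so in this gene it was unlike an oocyte. The counts of the transition, of the list members and of the difference from IVF embryos are given with and without it. Hybridisation control probe sets had a mean of 0.693 to 1.187 on the 4-cell and -0.034 to 0.96 on the 8-cell clone arrays (difference -0.433, exact permutation test, two-sided p = 0.0794, adjusted p = 0.159). The 3′ minus 5′ signal of Actb and Gapdh probe sets, a measure of RNA length, differed by -0.535 (exact permutation test, two-sided p = 0.159, adjusted p = 0.159). The part of both in the results was not tested, and fits with each as a covariate are in the closing section.

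More genes fell than rose between the 4-cell and the 8-cell clone. Of 18193 genes, 1182 (6.5%) passed the test, of which 424 (2.33%) rose and 758 (4.17%) fell. At least 2-fold changes made up 345 of the rises and 661 of the falls, and the median called gene moved by 1.68 upwards or by -1.67 downwards, while the median of all genes was -0.002. In 505 of the called genes no value of one stage overlapped the other (153 rises and 352 falls), compared with 658 of all genes (3.62%, with 1.28% higher and 2.34% lower). Without the 8-cell clone replicate 4, 455 genes rose and 736 fell. In the fit of the 10 arrays alone 123 genes passed (0.676%), 37 up and 86 down, and 118 of these were also called in the fit of 30 arrays. Quantile normalisation applied once more to the deposited values gave 975 rises and 1039 falls, so the excess of falls was smaller under that scaling. The embryo whose absence lowered the count most was the 8-cell clone replicate 3, with 950 genes called without it. For genes measured by several probe sets, 1145 of the 1535 other probe sets of called genes (74.6%) had a difference of the same sign, compared with 60.2% for all genes. The size of the change was mostly not shared. The median difference of these other probe sets was 0.13 for genes that rose and -0.19 for genes that fell, against 1.68 and -1.67 for the chosen ones. The genes nearest the threshold were Trim32 inside it (difference -1.71 ± 0.52 SE, adjusted p = 0.0499) and Ovca2 outside it (-1.41 ± 0.43 SE, adjusted p = 0.05012).

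**Figure D1:**
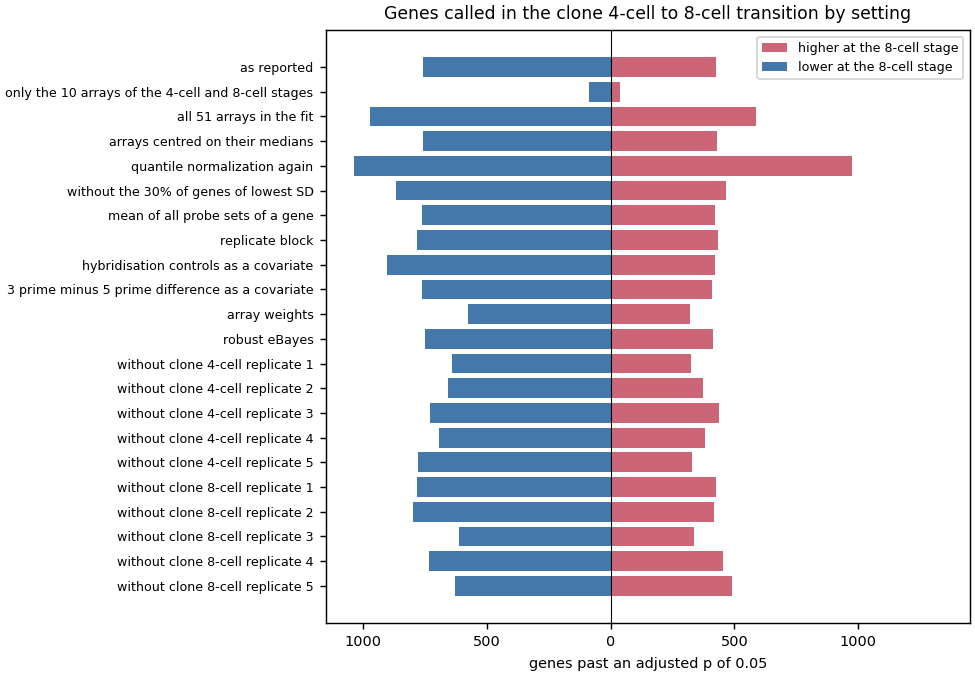
Number of genes past an adjusted p of 0.05 in the clone 4-cell to 8-cell transition (x axis, falls to the left and rises to the right) under each analysis setting (y axis). The count is 1182 as reported, 123 when only the 10 arrays of the 2 stages are used, 2014 after quantile normalisation again, and 950 to 1218 when 1 of the 10 embryos is left out.

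The genes described next had the largest differences, 12 in each direction, among called genes whose values did not overlap between the stages, so the absence of overlap is part of their choice. The largest rise belonged to Col4a1, and its partner Col4a2 was also among the 12. These genes encode the chains of type IV collagen, the network-forming collagen of basement membranes. Col4a1 stood at -1.42, -5.05, -4.08, -2.51 and -4.74 in the 4-cell clones and at 1.89, 1.45, 4.19, 0.50 and 1.68 in the 8-cell clones, a rise of 5.50 ± 0.67 SE or 45.3-fold (limma adjusted p = 7.19e-06, 0.0396 in the fit of the 10 arrays). Col4a2 lay within -2.27 to -2.24 in every 4-cell clone and at 1.93, 1.35, 4.50, -0.34 and 1.11 in the 8-cell clones, a rise of 3.97 ± 0.53 SE (adjusted p = 2.83e-05, 0.0611 with the 10 arrays alone). For both genes replicate 3 was the highest and replicate 4 the lowest of the 8-cell clones. On the GRCm38.p6 assembly the genes lie head to head on chromosome 8, with transcripts that start at 11312826 on the minus strand (Col4a1) and at 11312805 on the plus strand (Col4a2). From the 8-cell clone to the cloned morula, a comparison that shares the 8-cell arrays, Col4a2 rose by a further 2.60 (adjusted p = 0.000943), while the difference of 1.47 in Col4a1 did not pass (adjusted p = 0.14).

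Niban2, a cytoplasmic protein with a pleckstrin homology domain, moved from a tight group of 4-cell values (0.00, 0.00, 0.01, -0.22 and -0.28) to 3.32, 4.85, 7.42, 4.11 and 4.20. Its rise of 4.88 ± 0.46 SE, 29.4-fold, had an adjusted p of 3.09e-07 in limma and 0.0253 with the 10 arrays. Abcg2, an efflux transporter of the plasma membrane that is abundant in the placenta, stood at -0.82, -0.55, -0.78, -0.38 and 0.03 and then at 3.43, 3.99, 2.44, 4.15 and 2.84. That rise of 3.87 ± 0.44 SE (adjusted p = 4.61e-06) held at 0.00528 with the 10 arrays, the lowest of the 12 largest rises. Neither gene had an intermediate embryo.

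Among the other large rises, Grtp1, a TBC-domain protein, rose by 4.85 ± 0.42 SE (limma adjusted p = 6.71e-08) and Gsto1, a glutathione transferase, by 4.37 ± 0.81 (adjusted p = 0.00106). Cers6, a ceramide synthase, rose by 3.73 ± 0.43 SE from 4-cell values between -5.10 and -3.95 (limma adjusted p = 5.17e-06). The transcriptional regulators in this group were Bhlhe40 (3.95 ± 0.55 SE) and Id3 (3.74 ± 0.56), both of the helix-loop-helix family, with limma adjusted p of 4.74e-05 and 0.000117. Mbnl2, a splicing regulator, rose by 4.60 ± 0.65 SE, and its 4-cell values were split, at -0.60 and -0.61 in replicates 1 and 4 and 2.46 to 3.82 in the others, while the 8-cell clones lay between 5.68 and 6.99 (limma adjusted p = 5.68e-05). Eprn, a long non-coding RNA studied in embryonic stem cells, rose by 4.06 ± 0.49 SE (limma adjusted p = 6.87e-06).

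Tgm2, a transglutaminase, was the least even of them. It stood between 0.00 and 0.14 in the 4-cell clones and at 0.45, 0.18, 8.94, 5.64 and 6.13 in the 8-cell clones, so that only replicates 3, 4 and 5 were clearly above the 4-cell group. The rise of 4.23 ± 1.09 SE (limma adjusted p = 0.0161) missed the threshold without 8-cell replicate 3 (adjusted p = 0.0571) and with the 10 arrays (0.333). Of the 12 largest rises, 6 passed in the fit of the 10 arrays, and 11 passed whichever of the 10 embryos was left out. Replicate 3 was the highest 8-cell clone for 6 of these genes and replicate 4 for 4. Their other probe sets had a difference of the same sign, whatever its size, in 9 of 12 cases.

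Several of the large falls ended at a low value shared by most 8-cell clones. Klhl8, a Kelch-like protein, stood at 0.92, -0.25, 0.13, -0.74 and -0.91 in the 4-cell clones and at -5.56, -5.56, -5.58, -2.92 and -5.55 in the 8-cell clones. The fall of -4.86 ± 0.42 SE was 29.1-fold (limma adjusted p = 6.71e-08, 0.0174 with the 10 arrays), and 8-cell replicate 4 alone stood apart from the low value shared by the others. Supt7l, a subunit of the SAGA-type coactivator complexes, stood at 3.47, 3.60, 3.22, 3.63 and 2.61 and then at 0.02, -0.06, -0.02, 0.04 and 0.34, a fall of -3.24 ± 0.37 SE (limma adjusted p = 4.37e-06). Its adjusted p of 0.000544 with the 10 arrays was the lowest of the 12 largest falls. Dusp7, a phosphatase of ERK kinases, fell by -3.62 ± 0.44 SE (limma adjusted p = 7.19e-06), and replicate 2 was apart at both stages, at -0.64 against 1.64 to 2.43 and at -0.74 against -2.58 to -2.54.

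Tubb5, a beta-tubulin of dividing cells, stood between 0.97 and 1.35 in the 4-cell clones and at -1.28, -0.83, -1.13, -2.92 and -3.94 in the 8-cell clones. Its fall of -3.23 ± 0.44 SE (limma adjusted p = 3.88e-05, 0.0525 with the 10 arrays) was matched by a difference of -3.89 in its other probe set. Tubb5 rose again by 2.38 to the cloned morula (limma adjusted p = 0.000356). That comparison shares the 8-cell arrays, by whose low values the gene was chosen. X-linked genes supplied 3 of the 12 largest falls. They were Atp7a, a copper transporter (-3.83 ± 0.59 SE, adjusted p = 0.000145), Rlim, the ubiquitin ligase known for its part in X inactivation (-3.35 ± 0.63, adjusted p = 0.00114), and Atrx, a chromatin remodeller (-3.19 ± 0.73, adjusted p = 0.00677). Atrx lay within -3.58 to -3.45 in all 8-cell clones, and 4-cell replicate 2 was near them already at -2.84. Of the 617 X-linked genes 8 rose and 21 fell (4.7%), against 6.5% of all genes, so the X chromosome as a whole did not carry an excess of calls.

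The remaining large falls were those of Tgds, a sugar nucleotide dehydratase (-4.13 ± 0.45 SE), Caprin2, an RNA-binding protein (-3.59 ± 0.45), Rcan3, a calcineurin regulator (-3.47 ± 0.42), Atl3, a GTPase of the endoplasmic reticulum (-3.47 ± 0.47), and Foxk2, a forkhead factor (-3.28 ± 0.55). All 12 largest falls passed whichever of the 10 embryos was left out, with limma adjusted p up to 0.00677 in the full set, and 8 passed with the 10 arrays alone. Their other probe sets had a difference of the same sign in 21 of 26 cases, some of them near 0 (Rcan3 -0.07, Supt7l -0.00).

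**Figure D2:**
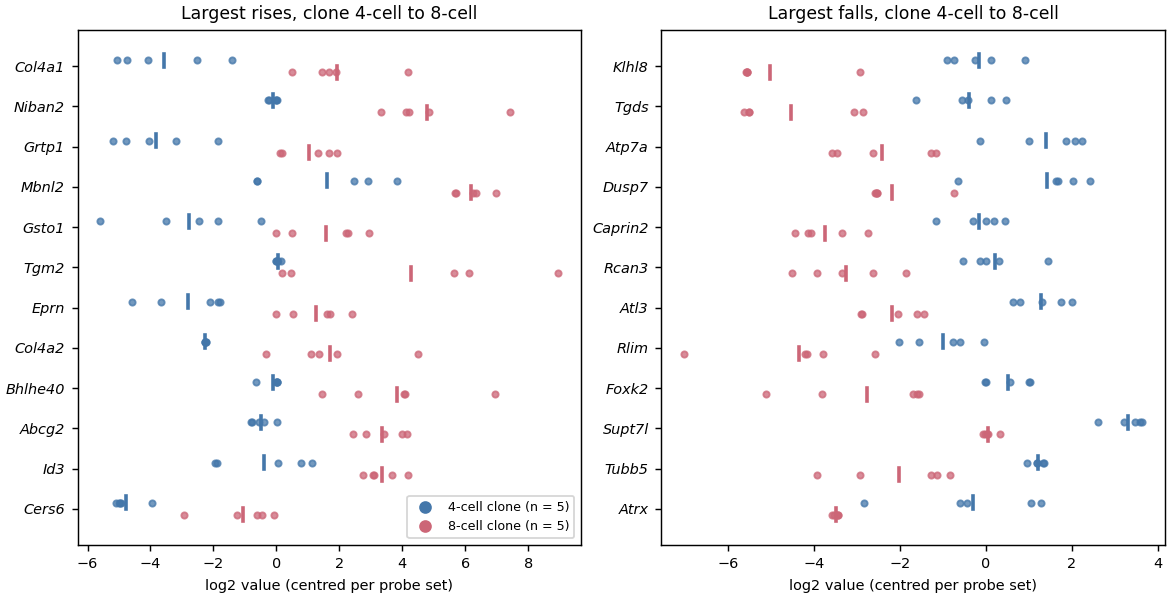
Log2 values of the 12 genes with the largest rises (left) and the 12 with the largest falls (right) in each 4-cell clone (blue) and 8-cell clone (red), n = 5 per stage, with a vertical bar at the mean. The genes were chosen to have no overlap between the 2 stages, several falls end in a tight group (Klhl8 at -5.58 to -5.55 in all but 1 embryo), and Tgm2 is high in only 3 of the 8-cell clones.

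Promoters are shown for the leading genes with a single entry in the RefSeq promoter table (GRCm38.p6) and no other gene overlapping, the first in each direction. The windows are the 250 bases before the transcript start, 5′ to 3′ on the gene's strand, with each GC box (GGGCGG, or CCGCCC on the other strand) in capitals, overlapping boxes included. The pair that rose is Eprn (chr13:73347385-73347634, minus strand), with none, and Id3 (chr4:136143572-136143821, plus strand), with 2 that overlap. The pair that fell is Tgds (chr14:118132766-118133015, minus strand), with 2, and Atp7a (chrX:106026974-106027223, plus strand), with 1.
Eprn: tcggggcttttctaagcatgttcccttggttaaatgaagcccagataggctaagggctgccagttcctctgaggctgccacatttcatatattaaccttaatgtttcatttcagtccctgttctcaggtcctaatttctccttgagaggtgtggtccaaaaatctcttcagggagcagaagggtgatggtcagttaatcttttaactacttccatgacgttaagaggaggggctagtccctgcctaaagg
Id3: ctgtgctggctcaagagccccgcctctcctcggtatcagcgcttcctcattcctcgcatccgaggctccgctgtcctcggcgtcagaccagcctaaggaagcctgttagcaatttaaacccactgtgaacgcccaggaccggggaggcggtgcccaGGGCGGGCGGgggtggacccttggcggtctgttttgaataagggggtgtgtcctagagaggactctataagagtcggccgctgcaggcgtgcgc
Tgds: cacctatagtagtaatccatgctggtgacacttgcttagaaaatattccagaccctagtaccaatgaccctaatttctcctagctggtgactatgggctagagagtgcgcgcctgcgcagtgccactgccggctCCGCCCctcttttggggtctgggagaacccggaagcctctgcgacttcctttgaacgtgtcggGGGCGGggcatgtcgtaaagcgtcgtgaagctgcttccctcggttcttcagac
Atp7a: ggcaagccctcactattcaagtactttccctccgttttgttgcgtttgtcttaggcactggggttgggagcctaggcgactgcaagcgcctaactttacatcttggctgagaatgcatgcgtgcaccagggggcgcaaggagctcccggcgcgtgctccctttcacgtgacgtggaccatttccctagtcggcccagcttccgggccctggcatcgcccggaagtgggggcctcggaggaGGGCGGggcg

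A GC box, the motif of Sp-family factors, lay on either strand of the promoter window (250 bases before to 50 after the start) of 57.5% of the 14368 genes with a promoter entry, of 66.2% of the 349 such genes that rose and of 71.3% of the 620 that fell. The CACGTG E-box was in 10.3% of all, 10.6% of the genes that rose and 13.9% of those that fell. The shares for TATAAA were 11.5%, 8.88% and 7.74%, and for the AP-1 motif TGANTCA they were 7.5%, 4.3% and 5.65%. The CCAAT motif was in 42.0%, 42.1% and 46.3%, the GATA motif AGATAA in 9.53%, 9.46% and 9.03%, the TEAD motif GGAATG in 15.3%, 17.5% and 14.0%, and the NR5A2 motif AAGGTCA in 4.61%, 5.44% and 3.06%. Called genes of both directions thus held a GC box more often, and a TATA or AP-1 motif less often, than all genes in this count, which was not tested. The 14368 genes were not filtered by their signal in these embryos, and the part of that in the shares was not tested.

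Gene lists are read against the 6.5% of all genes that passed (2.33% rose and 4.17% fell), so falls outnumbered rises over all genes too. Of the 785 members measured in 30 lists, 92 passed (11.7%), 43 higher and 49 lower. The listed genes as a whole were thus called more often than all genes. A list with a share near 11.7% does not stand out among the lists. Without the 8-cell clone replicate 4 there were 83 calls, 38 higher and 45 lower, and 72 of the 92 were among them. Without it the Hippo list had 1 rise and no fall, the trophectoderm list 2 rises, the compaction list 2 rises and 2 falls, the nucleolar list 1 rise and 4 falls, the list of imprinting through H3K27 trimethylation 4 rises, and the MHC list 1 fall and no rise. The tight junction list had 3 rises and 2 falls, and the glycolysis and p53 lists 2 of each. DNA replication genes had no rise and 3 falls, germline genes no rise and 1 fall, and the Sertoli list 1 rise and 2 falls. There were 4 falls of mitosis genes, 2 falls in the 2-cell list and 2 rises of heat shock genes. Transporters had 2 rises and 1 fall, and other testis cells no call. The remaining lists kept their counts. Leaving out each of the 10 embryos in turn, 49 of the 92 calls held in every case and 26 were lost in at least 5 of the 10 cases. In the fit of the 10 arrays alone only 11 of the 92 passed, and no other list member did. These were Omt2b, Pou5f1, Dab2, Col4a1, Cd9, Atp1b3, Spry4, Ezh1, Cdc25c, Psmg1 and Psmd1, so the list calls described next other than these rest on the spread pooled over 6 stages. Other probe sets are given below for some genes only, so where none is given it may or may not have followed.

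Maternal oocyte factors were the group with the highest share of called genes among the 30 gene lists examined. Of 28 measured members 10 fell and 1 rose (39.3%, against 6.5% of all genes), and the median difference was -0.75. Omt2b, an oocyte-expressed gene, fell by -2.76 ± 0.32 SE, from between -0.92 and 0.00 to between -4.14 and -1.55 (limma adjusted p = 4.61e-06, 0.0498 with the 10 arrays). Zp3, a protein of the zona pellucida around the oocyte, stood at -0.34, 1.14, -0.93, -0.39 and 0.00 and then at -1.77, -1.49, -2.36, -1.78 and -1.69, a fall of -1.71 ± 0.27 SE (limma adjusted p = 0.000176, 0.0807 with the 10 arrays). The 5 values of each stage did not overlap in either gene. The other falls were those of Oog3 (-2.74), Btg4, an adaptor of maternal mRNA deadenylation (-1.69), the oocyte growth factor gene Gdf9, Kit, the subcortical complex members Nlrp5 and Tle6, Nlrp4f and Bcl2l10. Khdc3, which encodes another member of the subcortical maternal complex, rose instead, by 1.72 ± 0.38 SE (limma adjusted p = 0.00507). Leaving out 1 embryo gave 8 to 11 falls, and 9 of the 11 calls held in every case. The exceptions were Tle6, lost in 5 of the 10 cases (limma adjusted p up to 0.0711), and Bcl2l10, lost in 6 (up to 0.0789). With the 10 arrays alone Omt2b was the single call. Of the genes of the 2-cell burst and of zygotic genome activation, 1 of 21 fell (4.76%, below the share of all genes), Klf17 (-2.01 ± 0.38 SE, adjusted p = 0.00135), and the median was -0.46.

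Pluripotency and inner cell mass genes had 3 rises and no fall among 23 measured (13.0%), with a median of 0.36. Pou5f1, which encodes the pluripotency factor Oct4, stood at -1.98, -2.40, -1.94, -2.23 and -1.97 in the 4-cell and at -0.08, -0.10, 0.02, -0.34 and -0.34 in the 8-cell clones. The stages did not overlap, and the rise of 1.94 ± 0.34 SE, 3.83-fold, had a limma adjusted p of 0.000687 over 30 arrays and 0.000544 over 10. Tfcp2l1, a factor of the naive pluripotent state, rose by 2.76 ± 0.50 SE (adjusted p = 0.000944, 0.111 with the 10 arrays), and Klf5 by 0.99 ± 0.30 (adjusted p = 0.0426, lost in 5 of the 10 cases with 1 embryo left out, up to 0.138). The 2 other probe sets of Tfcp2l1 did not follow, with differences of -0.00 and 0.03. Nanog (0.36 ± 0.47 SE, limma adjusted p = 0.901), Sox2 (-0.12 ± 0.39, 1.0), Klf4 (-0.12 ± 0.37, 1.0) and the maternal and germline factor Dppa3 (0.27 ± 0.18, 0.512) did not pass the test. Nanog spanned -1.86 to 0.67 in the 4-cell and -2.01 to 1.16 in the 8-cell clones, so its groups overlapped over nearly their whole range.

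Trophectoderm genes likewise had 3 rises and no fall, of 26 measured (11.5%, median 0.04). Dab2, an endocytic adaptor, rose by 2.31 ± 0.35 SE from between -3.68 and -2.02 to between -1.05 and 0.20 (limma adjusted p = 0.000127, 0.0452 with the 10 arrays). Krt18, a keratin of simple epithelia, rose by 2.93 ± 0.77 SE (adjusted p = 0.0192, lost in 3 of 10 cases, up to 0.0566), and Gata3, a trophectoderm transcription factor, by 1.23 ± 0.35 (adjusted p = 0.0321, lost in 5, up to 0.116). Cdx2, the trophectoderm determinant, was between -0.28 and 0.27 in all 10 clones (0.09 ± 0.32 SE, limma adjusted p = 1.0), far below its mean of 8.08 in cloned blastocysts. Tead4, which acts above Cdx2, had a difference of 0.90 ± 0.32 SE (adjusted p = 0.107). Of 17 primitive endoderm genes Lrp2 rose (1.87 ± 0.50 SE), and Gata4 (-2.39 ± 0.64) and Srgn (-2.32 ± 0.71) fell (17.6%). None of these 3 calls held in every case with 1 embryo left out: Lrp2 was lost in 2 of the 10 cases (limma adjusted p up to 0.0821), Gata4 in 3 (0.0723) and Srgn in 8 (0.143). The other probe sets of Lrp2 (-0.04 and 0.03) and Gata4 (0.21) did not follow the chosen one. Gata6, another primitive endoderm factor, had a difference of 1.63 ± 0.61 SE (adjusted p = 0.122).

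Compaction, adhesion and polarity genes had 3 rises and 3 falls among 30 (20.0%, against 6.5% of all genes) and a median of 0.05, and no member passed in the fit of the 10 arrays. Nectin2, an adhesion receptor, rose by 2.78 ± 0.41 SE, from between -1.27 and 0.29 to between 0.80 and 3.66 (limma adjusted p = 0.000104, 0.0838 with the 10 arrays). Pard6b, a polarity scaffold of the apical domain, rose by 1.79 ± 0.30 SE (adjusted p = 0.000412, 0.128 with the 10 arrays). Cdh1, which encodes E-cadherin, stood at -1.14, -1.43, -0.45, -0.90 and -3.97 and then within -0.09 to 0.38, a rise of 1.71 ± 0.49 SE (limma adjusted p = 0.0323). The 4-cell clone replicate 5 was far below the others, and without it the difference was 1.11 (adjusted p = 0.0913). The Cdh1 call was lost in 6 of the 10 cases with 1 embryo left out, and with the 10 arrays alone (adjusted p = 0.275). The falls were those of Rdx, a linker of membrane and actin (-3.14 ± 0.43 SE, adjusted p = 4.19e-05, 0.0562 with the 10 arrays), Myo10, a filopodial myosin (-1.98 ± 0.47, adjusted p = 0.00944), and Prkci, the atypical protein kinase C that partners Pard6b (-1.85 ± 0.53, adjusted p = 0.0343, lost in 6 of 10 cases, up to 0.0847).

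Tight junction, sodium pump and cavitation genes had 4 rises and 2 falls among 26 (23.1%). Cd9, a tetraspanin, rose by 1.08 ± 0.20 SE (limma adjusted p = 0.00121, 0.0351 with the 10 arrays), and Dsp, the desmosomal desmoplakin, by 2.52 ± 0.53 (adjusted p = 0.0035). The rises of Cldn4 (1.46 ± 0.43 SE) and Pkp2 (2.95 ± 0.88) were lost in 6 and 7 of the 10 cases with 1 embryo left out (limma adjusted p up to 0.116 and 0.146). Atp1b3, a sodium pump subunit, fell by -1.32 ± 0.20 SE (adjusted p = 0.000159, 0.0388 with the 10 arrays) and Epcam, an epithelial adhesion molecule, by -1.33 ± 0.28 (adjusted p = 0.00327). In the basement membrane list Col4a1 and Col4a2 were the only calls among 19 members (10.5%, median 0.32), and both calls held whichever embryo was left out.

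In the Notch, FGF and Wnt list 2 of 30 rose and 2 fell (13.3%). Spry4, a feedback inhibitor of FGF signalling, fell by -2.05 ± 0.29 SE, from between -0.07 and 1.73 to between -1.83 and -1.32 (limma adjusted p = 4.8e-05, 0.0414 with the 10 arrays), and the adaptor Grb2 by -0.88 ± 0.21 (adjusted p = 0.00783). Etv5, an ETS factor induced by FGF signalling, rose by 2.19 ± 0.52 SE (adjusted p = 0.00867), and Rbpj, the DNA-binding partner of Notch, by 1.47 ± 0.40 (adjusted p = 0.0248, lost in 5 of 10 cases, up to 0.0768). The 2 other probe sets of Etv5 did not follow, with differences of -0.01. Of 21 Hippo pathway genes Vgll4, a TEAD cofactor, rose (2.40 ± 0.51 SE, adjusted p = 0.00368) and Sav1, a scaffold of the kinase cascade, fell (-1.55 ± 0.47, adjusted p = 0.0472, lost in 7 of 10 cases, up to 0.173), 9.52% of the list.

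Of 38 chromatin genes 6 fell and 1 rose (18.4%), with a median of -0.08. The histone methyltransferase Suv39h2 fell by -2.81 ± 0.46 SE (limma adjusted p = 0.00033, 0.0838 with the 10 arrays) and the Polycomb enzyme Ezh1 by -1.25 ± 0.24, from between -0.82 and -0.04 to between -1.74 and -1.22 (adjusted p = 0.0014, 0.0224 with the 10 arrays). The 3 other probe sets of Ezh1 had differences of only -0.01 to 0.03. Dnmt3l, the cofactor of de novo DNA methylation, rose by 1.83 ± 0.44 SE (adjusted p = 0.0106). The falls of Smarca4 (-1.18), Kdm1a (-1.06), Ehmt1 (-1.07) and Uhrf1 (-1.53) were lost in 1, 3, 5 and 6 of the 10 cases with 1 embryo left out, at limma adjusted p of up to 0.0548, 0.0857, 0.0942 and 0.115. Leaving out 1 embryo gave 3 to 7 falls and 1 to 3 rises, and quantile normalisation gave 5 of each, so the excess of falls depends on the scaling.

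Of 31 mitosis and spindle genes 5 fell and none rose (16.1%), with a median of -0.48 against -0.002 for all genes. The mitotic kinase gene Aurkb fell by -2.57 ± 0.52 SE, from between 0.68 and 1.39 to between -3.64 and -0.17 (limma adjusted p = 0.00243, 0.0993 with the 10 arrays), and cyclin A2 (Ccna2) by -0.88 ± 0.18, from between 0.62 and 0.83 to between -0.54 and 0.30 (adjusted p = 0.00215, 0.0706 with the 10 arrays). Their values did not overlap between stages. Espl1 (-0.61 ± 0.17 SE), Cdc25c (-1.32 ± 0.39) and Ttk (-0.91 ± 0.27) were lost in 5, 8 and 6 of the 10 cases with 1 embryo left out (limma adjusted p up to 0.101, 0.0986 and 0.131), where the list had 2 to 9 falls. In the fit of the 10 arrays Cdc25c was the single mitosis call (adjusted p = 0.0288). In the DNA replication and G1-S list 4 of 36 fell and 1 rose (13.9%). These were the origin recognition genes Orc1 (-2.29 ± 0.59 SE) and Orc6 (-0.56 ± 0.14), the licensing inhibitor Gmnn (-0.39 ± 0.10) and Gins3 (-0.93 ± 0.28), with a rise of the ribonucleotide reductase gene Rrm1 (1.78 ± 0.52). None of those 5 calls held in every case when 1 embryo was left out, and the list had no call with the 10 arrays alone. Nucleolar ribosome biogenesis genes had 6 falls and 1 rise of 41 (17.1%, median -0.15), the falls being small, between -0.71 (Imp4) and -1.06 (Rrp12). Rrn3, a polymerase I initiation factor, fell by -0.90 ± 0.20 SE (adjusted p = 0.00492) and Tsr1 by -0.75 ± 0.18 (adjusted p = 0.00931), and these 2 calls alone held whichever embryo was left out.

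Few proteasome and respiratory chain genes passed, 3 of 34 (8.82%) and 2 of 38 (5.26%), about the share of all genes, and none fell. Most members had small positive differences that did not pass: the sign was positive in 30 (88.2%) and 34 (89.5%), against 48.3% of all genes, and the medians were 0.40 and 0.33. Psmg1, a proteasome assembly chaperone, rose by 1.47 ± 0.21 SE, from between -1.54 and -0.93 to between -0.09 and 0.36 (limma adjusted p = 4.7e-05, 0.012 with the 10 arrays). Psmc6 (1.62 ± 0.33 SE) and Psmd1 (0.74 ± 0.17) made up the 3 proteasome calls. Cox6c, of complex IV, rose by 1.12 ± 0.19 SE (adjusted p = 0.000389) and Uqcrc2, of complex III, by 0.96 ± 0.19 (adjusted p = 0.00232), and neither passed with the 10 arrays (0.0603 and 0.061). After quantile normalisation 13 members of each list rose and none fell, with medians of 0.65 and 0.74. Translation initiation and tRNA synthetase genes had a median of 0.19 and 1 call of 36 (2.78%), Eif4g2 (1.23 ± 0.36 SE, adjusted p = 0.0398, lost in 6 of 10 cases, up to 0.13).

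Metabolic and stress genes gave scattered calls. Hk2, the first enzyme of glycolysis, rose by 3.38 ± 0.75 SE (limma adjusted p = 0.00513, 0.187 with the 10 arrays), while Pdk1, an inhibitor of pyruvate dehydrogenase, fell by -3.20 ± 0.55 (adjusted p = 0.00057, 0.111 with the 10 arrays) and the lactate and pyruvate transporter gene Slc16a1 by -2.02 ± 0.49 (adjusted p = 0.011). Pfkfb3, an activator of glycolysis, was the weakest of the 4 calls among 22 (18.2%), at -1.46 ± 0.45 SE (adjusted p = 0.0493, lost in 9 of 10 cases, up to 0.137). The other probe sets of Slc16a1 (-0.07) and Pfkfb3 (0.35) did not follow the chosen one. Of 25 sterol and lipid genes only the desaturase Scd2 passed (3.33 ± 0.89 SE, adjusted p = 0.0213, lost in 3 of 10 cases, up to 0.0838, 4.0%). The p53 and cell death list had 3 rises and 1 fall of 26 (15.4%). Perp, a p53 target of the membrane, rose by 3.75 ± 0.68 SE (adjusted p = 0.000824, 0.118 with the 10 arrays) and the p53 inhibitor Mdm4 fell by -1.14 ± 0.22 (adjusted p = 0.00183), and the cell cycle inhibitor Cdkn1a (1.77 ± 0.47) and Pawr (1.27 ± 0.37) were lost in 2 and 8 of the 10 cases (up to 0.0686 and 0.134). Of 31 heat shock genes the cochaperone Dnaja1 rose (1.50 ± 0.36 SE, 3.23%). Of 25 transporters Slc5a11 (2.66 ± 0.48 SE, adjusted p = 0.000829) and Slc7a7 (1.69 ± 0.44, lost in 3 of 10 cases, up to 0.0591) rose (8.0%).

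Imprinted genes are of interest in clones because imprints of the somatic donor persist or are lost. Of 27 classical imprinted genes none passed limma's test (median -0.01), 3 had an unadjusted p under 0.05, and the count was 1 after quantile normalisation and 0 to 2 with 1 embryo left out. Among 24 genes with imprinting through H3K27 trimethylation of the maternal allele, Mbnl2, Epas1 (3.21 ± 0.55 SE, limma adjusted p = 0.000553, 0.15 with the 10 arrays) and Rbms1 (2.63 ± 0.66, adjusted p = 0.0142, lost in 2 of 10 cases, up to 0.0534) rose and none fell (12.5%). These arrays do not tell alleles apart.

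Markers of other cells were checked in the same arrays. The 7 defining Sertoli markers (Sox9, Amh, Dhh, Wt1, Fshr, Clu and Cldn11) had no call in limma and none at an unadjusted p under 0.05, and the mean over them lay between 0.03 and 0.84 in the 4-cell and between 0.35 and 0.89 in the 8-cell clones. Clu stood apart, with means of 2.01 and 2.86 in these stages, against -0.90 in oocytes, -0.61 in 1-cell clones and 0.16 in cloned blastocysts. The other markers had means of 0.01 to 0.72 in the 2 stages. A transcript present alike at both stages would give no call. The wider Sertoli list had 2 rises (Krt18, Rhox5) and 3 falls (Gata4, Shbg, Tsx) of 23 (21.7%, against 6.5% of all genes). Of these 5 calls 1 held whichever embryo was left out. Neither the 17 cumulus nor the 23 sperm genes had a call in limma (medians 0.01 and 0.04), with 1 and 3 members at an unadjusted p under 0.05, and of 24 genes of other testis cells only Star passed, with a difference of 0.22 (limma adjusted p = 0.0255, lost in 4 of 10 cases, up to 0.0827). With 1 embryo left out the cumulus list had no call and the sperm list at most 1. The germline list had 1 rise (Rhox5, 2.96 ± 0.84 SE, lost in 5 of 10 cases, up to 0.107) and 1 fall (Brdt, -2.49 ± 0.63, lost in 2, up to 0.0573) of 25 (8.0%), and Ly6e (2.54 ± 0.74, lost in 7, up to 0.109) was the only call of 19 MHC class I and interferon genes (5.26%). The part of carried-over donor RNA in any of these values was not tested.

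**Figure D3:**
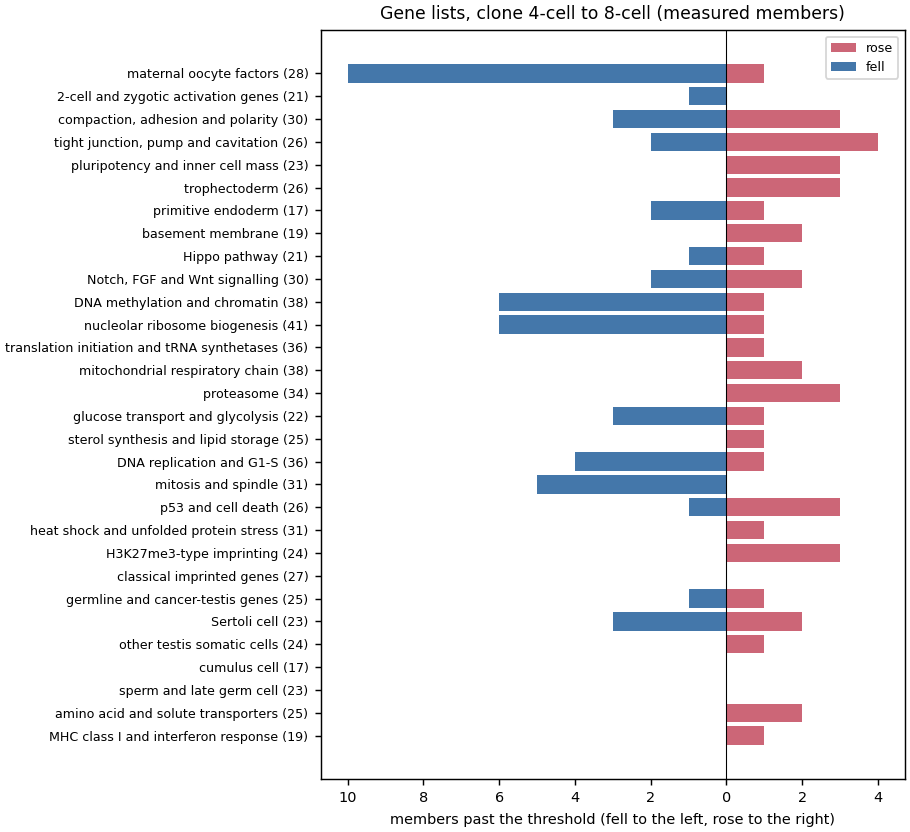
Number of members past the threshold in the clone 4-cell to 8-cell transition (x axis, falls to the left in blue, rises to the right in red) for each of 30 gene lists, with the number of measured members in brackets. Maternal oocyte factors have 10 falls and 1 rise of 28, mitosis genes 5 falls of 31, and proteasome genes 3 rises of 34.

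The same transition in IVF embryos, on separate arrays, moved mostly in the same direction. It gave 361 calls (1.98%), 223 rises (1.23%) and 138 falls (0.759%), with 3 embryos per stage, so counts of the 2 kinds of embryo cannot be set against each other. Of the 424 genes that rose in clones, 312 (73.6%) had a positive difference in IVF embryos, compared with 37.8% of all genes, and of the 758 that fell 545 (71.9%) had a negative one, compared with 62.2%. Their median IVF differences were 0.53 and -0.34, smaller than in the clones that chose them. In all, 86 genes passed in both kinds of embryo, 83 of them in the same direction. Among the largest rises Gsto1 (4.56 ± 0.98 SE, limma adjusted p = 0.0281) and Eprn (2.89 ± 0.69, adjusted p = 0.046) also passed in IVF embryos, and among the largest falls Klhl8 did (-1.31 ± 0.28, adjusted p = 0.0268).

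Other IVF comparisons place the genes in the normal course of development. These were added after the values had been seen. Of the genes that fell in clones 50.3% also fell from the MII oocyte to the IVF 4-cell embryo (23.4% of all genes, 24.1% of the genes that rose), and 51.6% fell from the IVF 8-cell embryo to the IVF blastocyst (18.3% of all genes, 9.91% of the genes that rose). Of the genes that rose in clones 36.6% had risen from the MII oocyte to the IVF 4-cell embryo (20.4% of all genes, 31.9% of the genes that fell), and 48.8% rose from the IVF 8-cell embryo to the blastocyst (17.1% of all genes, 10.8% of the genes that fell). The shares before and after this step were counted separately.

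The difference between the clone and the IVF transition was tested itself, as an interaction in 1 limma fit of the 51 arrays. It passed for 239 genes (1.31%), with a higher change in clones for 52 (0.286%) and a lower one for 187 (1.03%). Of the 52 genes 29 rose in clones and 14 fell in IVF embryos. Of the 187 genes 107 fell in clones and 58 rose in IVF embryos, counts that rest on 5 and 3 embryos per stage. With the 16 arrays of the 4-cell and 8-cell stages alone, 28 genes passed, 19 of them among the 239. The other calls of the 239 rest on the spread pooled over all stages. No 16-array result is given for the genes named below. After quantile normalisation the split was 232 higher and 286 lower. Without the 8-cell clone replicate 2 the higher count was 87, and without replicate 4 the test passed for 283 genes, 77 higher and 206 lower.

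The basement membrane collagen genes rose at this step in clones and did not pass the test in IVF embryos. In IVF embryos Col4a1 stood at -4.95, -3.98 and -2.89 at the 4-cell and at -1.75, -5.17 and -2.38 at the 8-cell stage (0.84 ± 0.86 SE, limma adjusted p = 0.751), against the rise of 5.50 in clones. The difference between the transitions was 4.66 ± 1.10 SE for Col4a1 (adjusted p = 0.0213) and 3.90 ± 0.82 for Col4a2 (adjusted p = 0.00778), whose IVF values all lay between -2.30 and -2.11. IVF embryos reached the higher values later. Their Col4a1 mean was -3.10 ± 1.82 (SD, n = 3) at the 8-cell stage, 0.71 ± 0.93 in the morula and 2.43 ± 0.20 in the blastocyst, where the cloned blastocysts were at 2.44 ± 0.63 (SD, n = 5).

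Niban2 was also higher in clones first. Its IVF 4-cell and 8-cell values lay between -0.30 and 0.05, and the difference between the transitions was 4.66 ± 0.61 SE (limma adjusted p = 1.44e-05). The IVF mean was 3.46 ± 0.19 (SD, n = 3) in the morula, where the cloned mean was 4.64 ± 0.84 (SD, n = 5), and the ranges of 3.33 to 3.69 and 3.80 to 5.94 did not overlap. Abcg2 differed by 3.81 ± 0.66 SE (adjusted p = 0.000993), and its means stayed apart: cloned blastocysts stood at 6.65 ± 0.88 (SD, n = 5) and IVF blastocysts at 3.28 ± 0.38 (SD, n = 3). Cers6, with a difference of 3.07 ± 0.64 SE (adjusted p = 0.00688), was another of the largest rises that passed this test.

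In 2 further genes the difference had other sources. Allc, a homologue of the purine-degrading enzyme allantoicase, was at 4.36 to 4.85 in all 6 IVF embryos and rose in clones from 2.26, 4.53, -0.03, -0.63 and 0.48 to between 3.01 and 5.44 (difference between transitions 3.60 ± 0.95 SE, adjusted p = 0.0435), so that 8-cell clones stood about where IVF embryos had been. Garem1, an adaptor of growth factor signalling, fell by -3.08 ± 0.67 SE in IVF embryos (adjusted p = 0.0285) and was already low in 4-cell clones, at -5.52 to -2.29 (difference between transitions 3.62 ± 0.96, adjusted p = 0.0453). In the clone transition the other probe set of Allc differed by 2.43 and that of Garem1 by -0.02.

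Among the genes whose change was lower in clones, Pde7a, a phosphodiesterase of cyclic AMP, stood at 0.47, 0.59, 2.82, 1.67 and 1.21 in the 4-cell and at -1.38, 0.05, -2.33, -3.34 and -1.43 in the 8-cell clones, a fall of -3.04 ± 0.60 SE (limma adjusted p = 0.00187). In IVF embryos it was at -0.10, -3.46 and -0.76 and then at 0.34, 2.44 and 2.65, a difference of 3.25 ± 0.86 SE (adjusted p = 0.0718). The transitions differed by -6.29 ± 1.03 SE (adjusted p = 0.000559), the largest in size among the 12 genes named for this test. Nrip1, a nuclear receptor corepressor, fell by -2.69 ± 0.61 SE in clones. Its IVF difference of 1.82 ± 1.01 did not pass (limma adjusted p = 0.46, difference between transitions -4.51 ± 1.12, adjusted p = 0.0301).

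Amotl2, an angiomotin-like scaffold of the Hippo pathway, rose in IVF embryos from -3.13, -0.02 and -1.61 to 1.41, 2.44 and 1.95 (3.52 ± 0.58 SE, limma adjusted p = 0.00591). Clones had it at 1.47, 1.75, 1.78, 1.08 and -0.18 at the 4-cell stage already and at -0.58, 1.96, -1.0, -1.48 and 0.59 at the 8-cell stage (-1.28 ± 0.50 SE, adjusted p = 0.142). The transitions differed by -4.81 ± 0.79 SE (adjusted p = 0.000559). From the 2-cell to the 4-cell stage clones had raised Amotl2 by 4.98 (adjusted p = 1.29e-08). That comparison shares the 4-cell arrays, whose high clone values are part of the gene's choice.

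Ppp1r16b, a regulatory subunit of protein phosphatase 1, was at 5.02, 5.26, 0.69, 3.55 and 5.03 in the 4-cell clones and at 1.09, 0.06, 0.00, 0.08 and 0.13 in the 8-cell clones (-3.64 ± 0.64 SE, limma adjusted p = 0.000667). IVF 8-cell embryos still held it at 3.97 to 5.09, and their morulae were at -0.01. The transitions differed by -4.64 ± 0.94 SE (adjusted p = 0.00538). Plekhb2 (-5.14 ± 1.11 SE, adjusted p = 0.00888) and the tubulin glutamylase subunit Ttll1 (-4.58 ± 1.15, adjusted p = 0.0345) completed the 6 lowest. Plekhb2 differed by -2.06 ± 0.71 SE in clones (limma adjusted p = 0.0911) and by 3.08 ± 0.76 in IVF embryos (adjusted p = 0.0526). For Ttll1 these differences were -2.37 ± 0.61 SE (adjusted p = 0.0162) and 2.21 ± 1.07 (adjusted p = 0.381). The IVF 4-cell embryos had Ttll1 at 0.54, 0.10 and -4.47. In the clone transition the other probe sets of Plekhb2 (0.17), Ppp1r16b (0.01) and Ttll1 (-0.04 and 0.04) did not follow the chosen one. Those of Pde7a (4 of 6) and Nrip1 (4 of 5) mostly had its sign, and Amotl2 had no other. Of the 12 largest falls 9 passed the difference test, among them Klhl8 (-3.55 ± 0.59 SE, adjusted p = 0.000559) and Tubb5 (-3.12 ± 0.69, adjusted p = 0.0113), compared with 5 of the 12 largest rises. These genes were chosen by the clone change, which is part of the tested difference, so the choice itself favours high counts. Among all called genes 107 of the 758 falls and 29 of the 424 rises passed it, and 1.31% of all genes did.

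**Figure D4:**
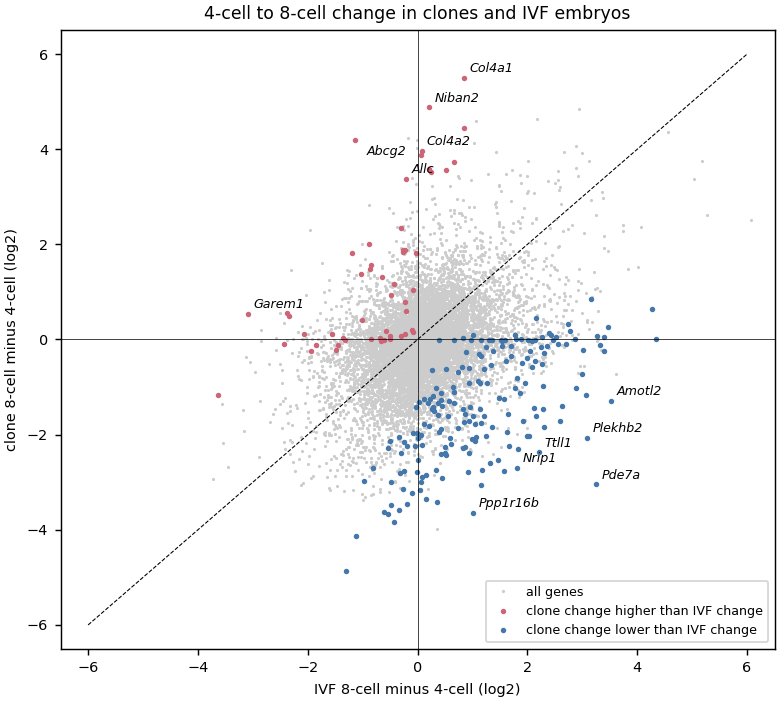
Difference between the 8-cell and 4-cell stage in clones (y axis, log2) against the same difference in IVF embryos (x axis, log2), 1 point per gene, with the 52 genes whose clone change was higher in red, the 187 whose clone change was lower in blue, and a dashed line where both changes are equal. Col4a1, Col4a2, Niban2 and Abcg2 lie high near an IVF difference of 0. Pde7a, Plekhb2, Nrip1 and Ttll1 lie where the clone difference is negative and the IVF difference positive. In none of them did the IVF difference pass the test, and in Plekhb2 the clone difference did not pass either.

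Within the 30 lists 14 of the 785 measured members differed between the transitions (1.78%, against 1.31% of all genes), 2 higher (Col4a1, Col4a2) and 12 lower (0.255% and 1.53%, against 0.286% and 1.03%). The 12, of which those outside the naming rule were picked after their values were seen, were Omt2b, Ezh1, Slc16a1, Ttk, Amotl2, Dusp6, Hand1, Amn, Tyms, Tle3, Inhbb and Ifitm2. Dusp6, an ERK phosphatase induced by FGF signalling, rose in IVF embryos by 4.27 (limma adjusted p = 1.78e-05), to between 3.66 and 4.58, while 8-cell clones spanned -0.45 to 1.61 (difference between transitions -3.62 ± 0.68 SE, adjusted p = 0.00227). Tyms, the thymidylate synthase, rose in IVF embryos by 2.56 (adjusted p = 0.00297) and not in clones (-0.10, adjusted p = 1.0), and Ttk, a spindle checkpoint kinase, rose in IVF embryos by 1.14 and fell in clones by 0.91. Amn, an endoderm membrane protein, Tle3, a corepressor, and Inhbb, an activin subunit, rose in IVF embryos by 3.28, 3.00 and 3.40, with clone differences of 0.08, -0.73 and -0.23. Hand1, a trophoblast transcription factor, was at 4.07 to 5.81 in the IVF and at 0.01 to 1.01 in the cloned 8-cell embryos.

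Pou5f1 and Cdh1 rose in clones from below the IVF values. At the 4-cell stage the Pou5f1 mean was -2.11 ± 0.20 (SD, n = 5) in clones and -0.01 ± 0.11 (SD, n = 3) in IVF embryos, and at the 8-cell stage -0.17 ± 0.16 and 0.71 ± 0.39. The IVF difference was 0.72 ± 0.31 SE (limma adjusted p = 0.3), and the difference between transitions (1.21 ± 0.51, adjusted p = 0.305) did not pass. Cdh1 went from -1.58 ± 1.38 (SD) to 0.13 ± 0.19 in clones and from -0.16 ± 0.17 to -0.02 ± 0.14 in IVF embryos (difference between transitions 1.57 ± 0.66 SE, adjusted p = 0.308). Zp3 had an IVF difference of -0.18 ± 0.49 SE at this step (adjusted p = 0.968), and IVF embryos reached -3.92 ± 1.02 (SD, n = 3) in the morula, against -2.94 ± 0.37 (SD, n = 5) in cloned morulae.

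**Figure D5:**
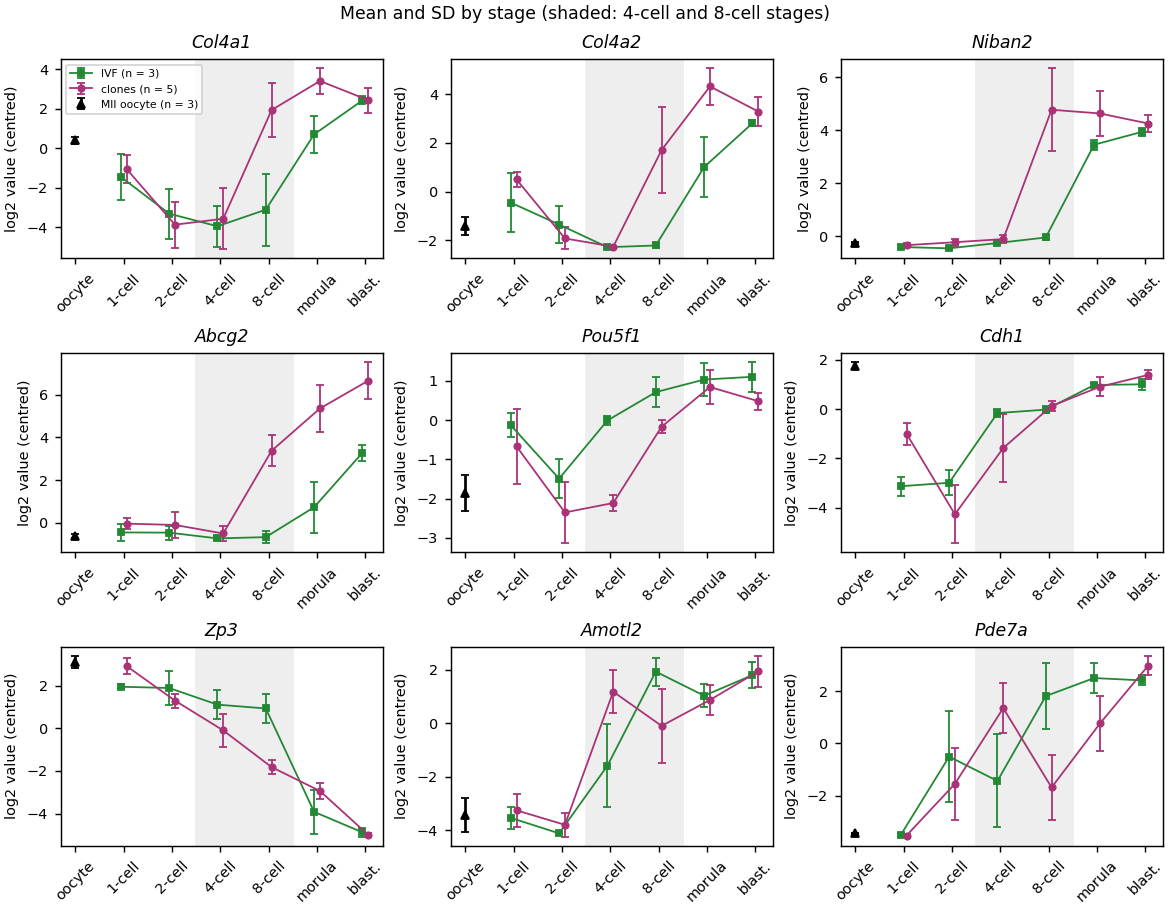
Mean log2 value with SD by stage for 9 genes in clones (circles, n = 5), IVF embryos (squares, n = 3) and MII oocytes (triangles, n = 3), with the 4-cell and 8-cell stages shaded. Col4a1, Col4a2, Niban2 and Abcg2 are up in clones by the 8-cell stage and in IVF embryos from the morula on, Pou5f1 and Cdh1 start lower in 4-cell clones, and Amotl2 and Pde7a are higher in clones at the 4-cell and in IVF embryos at the 8-cell stage.

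This was the least active of the 3 neighbouring steps of the clones by number of calls in the same fit. The step from 2 to 4 cells, which shares the 4-cell arrays, had 5434 calls (29.9%), and the step from 8 cells to the morula, which shares the 8-cell arrays, had 3169 (17.4%). Bhlhe40 and Id3 rose at this step and fell to the morula, by -3.75 (limma adjusted p = 2.22e-05) and -2.94 (adjusted p = 0.000527). Cers6 fell by -2.78 from 2 to 4 cells (adjusted p = 1.36e-05) before its rise, and Klhl8 and Dusp7 had already fallen by -4.29 (adjusted p = 9.07e-09) and -5.73 (adjusted p = 1.38e-10). Bhlhe40, Id3 and Cers6 were chosen for low values on the 4-cell and high values on the 8-cell arrays. The neighbouring steps share these arrays, so the choice itself favours the falls of Bhlhe40, Id3 and Cers6 there.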

How the data were processed

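Single oocytes and embryos were measured on 51 Affymetrix mouse arrays after 2 rounds of cRNA amplification, per the labels' protocols. The authors made the values with RMA, per the submitters' processing notes, no version being named. Per the file's values the deposited unit is log2, although its base is not stated. The deposited values are centred for each probe set, a step not described in the labels: in 94.3% of the 45101 probe sets exactly 1 array is at 0. Precision is limited by the number of embryos, since arrays have no read depth.

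Of the probe sets 34945 had 1 gene symbol, 932 several and 9160 none, and 64 were controls, which were left out. Of 18193 genes 18032 matched RefSeq (GRCm38.p6) by gene identifier. Clones were fitted with limma 3.58.1 (R 4.3.3), 30 arrays with 1 mean per stage, the IVF transition in 21 oocyte and IVF arrays, and the difference in all 51. P-values were Benjamini-Hochberg adjusted over all genes at 0.05. The script was tested on simulated data. The named genes were the 12 largest changes per direction among called genes with no overlap between stages, and the 6 largest differences per direction. Y-linked genes and clone-number symbols were left out of these 2 sets. Added were 11 followed genes and, from each of the 30 lists of textbook genes, up to 4 members of smallest adjusted p, called or not. Other called list members were named after their values were seen. Members and lists were chosen with earlier results of these data known. Labels share replicate numbers between stages, but deviations of same-numbered embryos correlated by -0.038 to 0.134 and not all above 0.1, so the embryos were not paired. Alternatives were the arrays in the fit, scaling, a filter on low SD, the mean over probe sets, a replicate block, quality covariates, array weights, robust eBayes, and leaving out each embryo.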

Additional observations from a re-analysis of the deposited data

Results flagged for a closer look

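In 14 of 86 sets of 5 embryos (16.3%), for the 43 leading and followed genes, 1 embryo lay farther from the others than the 95% critical value of Dixon's gap test allows. Chance gives about 1 in 20 where values are normally distributed. At the 4-cell stage these were Bhlhe40 in replicate 5 (-0.65), Cers6 in replicate 3 (-3.95), Dusp7 in replicate 2 (-0.64), Cdx2 in replicate 1 (0.00), Tead4 in replicate 4 (-1.71) and Cdh1 in replicate 5 (-3.97). At the 8-cell stage they were Klhl8 in replicate 4 (-2.92), Dusp7 in replicate 2 (-0.74), Supt7l in replicate 5 (0.34), Allc in replicate 2 (3.01), Plekhb2 in replicate 5 (-3.13), Ppp1r16b in replicate 1 (1.09), Sox2 in replicate 3 (-1.38) and Cdx2 in replicate 5 (0.27). In Klhl8 the other 8-cell clones lay within -5.58 to -5.55, so a tight group made the gap large. The others were as tight in Bhlhe40 (-0.00 to 0.01), Supt7l (-0.06 to 0.04), Ppp1r16b (0.00 to 0.13) and, at the 4-cell stage, Cdx2 (-0.28 to -0.24). Such groups are not normally distributed, so the share of 16.3% cannot be read as an excess over 1 in 20. No explanation was tested.

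The change from the 4-cell to the 8-cell stage differed between clones and IVF embryos, by limma's interaction test, in 12 named genes. It was higher in clones for Niban2 (4.66), Col4a1 (4.66), Col4a2 (3.90), Abcg2 (3.81), Garem1 (3.62) and Allc (3.60). It was lower for Pde7a (-6.29), Plekhb2 (-5.14), Amotl2 (-4.81), Ppp1r16b (-4.64), Ttll1 (-4.58) and Nrip1 (-4.51).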

How the results depend on the processing

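With the 10 arrays of both stages alone, 123 genes passed in the clone transition, 37 higher and 86 lower, and with 16 arrays the difference from IVF embryos had 28, 9 higher and 19 lower. Quantile normalisation again gave 2014 genes in the transition, 975 higher and 1039 lower, and 518 in the difference, 232 higher and 286 lower. Hybridisation controls as a covariate gave 1325 genes in the transition, 420 higher and 905 lower, and 355 in the difference, 94 higher and 261 lower. The 3′ minus 5′ signal as a covariate gave 1173 in the transition, 410 higher and 763 lower, and 288 in the difference, 76 higher and 212 lower. Leaving out 1 embryo gave 950 to 1218 genes in the transition, 323 to 488 higher and 612 to 800 lower, and 180 to 329 in the difference, 38 to 87 higher and 136 to 242 lower, the 87 without 8-cell clone replicate 2. With the replicate number as a block 1218 genes passed in the transition, 1119 of them shared with the fit without it, and 228 in the difference, so pairing by number moved no count by over 1.5 times. The other settings kept these counts within 1.5 times. For 153 named genes, 267 of 3203 combinations of gene and setting lost the call, 93 gained one and none reversed a called direction. For the 12 genes named for the difference 59 of 312 lost it. Of 651 list medians under a setting 70 moved beyond their spread. The cause of these shifts was not tested. Signal over background was not judged, so a tight low value may be a floor, and 5 embryos a stage with wide spread limit what small changes can be called.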
